A study of Canis lupus familiaris with 4 samples.

Results

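The data describe 27 genes of cytosolic ribosomal proteins, 18 of the large and 9 of the small ribosomal subunit, in MDCK cells that carry E2-2. They were chosen by name from the platform annotation, as every gene whose only symbol is that of an RPL or RPS protein, of a P-stalk protein (RPLP0 to RPLP2) or of RPSA. Kinases of the RPS6K family, mitochondrial ribosomal proteins and RPS4Y1 were left out by the same rule. RPLP0, RPLP1, RPLP2 and RPSA were not analysed here. Of 31 symbols that met the name rule, on 50 clones, 27 had a value on at least 1 array of each transfectant, among 9575 such features in all. A further 4 clones carried several symbols, 1 of them a ribosomal protein's, and were not used.

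Ribosomal proteins build the ribosome around its RNA. The large subunit holds the site of peptide bond formation and the exit tunnel, and the small subunit reads the messenger RNA. Each ribosome takes about equal amounts of most of these proteins, and in cultured cells their genes are among the most highly expressed. Their messenger RNAs usually begin with a tract of pyrimidines through which translation of the whole class is controlled. Some members also act outside the ribosome, such as RPL11, which binds the p53 regulator MDM2, and RPS27L, a paralogue of RPS27 that p53 induces.

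MDCK is an epithelial line of canine kidney. Transfectants labelled E22A and E22B (E2-2 is the transcription factor encoded by TCF4) were each hybridised with the MDCK-CMV control on a spotted complementary DNA array, with 2 arrays per transfectant and a reciprocal exchange of Cy3 and Cy5 according to the design text. All cells were grown in the same serum-containing medium, the design text calls each transfectant a clone, and the promoter of the construct is not stated in these sources. Each transfectant is thus 1 biological sample read on 2 arrays, the control RNA is shared by all 4 arrays, and every SD below is over the 2 arrays of a transfectant and measures technical spread.

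The values are log2 dye ratios, centred on the median of each array, so a value says where a gene lay relative to the array's median and not how abundant its RNA was. The base of the logarithm is taken as 2 by convention. In RNA from whole cultures, fewer cells of a type and less RNA per cell cannot be told apart. The labelled cell type could not be checked from ratios, which give no level. Clones came from human genes and the RNA was canine. Of the 27 symbols, 26 are also symbols of the dog gene table, RPL39 being the exception. Spots with a value numbered between 22360 and 23136 of 27648 per array. The printed duplicates of a ribosomal protein clone lay close together, with a median gap between 0.01 and 0.02 on the 4 arrays and a largest gap of 0.18.

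Direction needs 1 convention and 1 warning. The E22B labels name the dyes without conflict, so E22B array 1 was turned in sign and array 2 was not. After turning, a positive value means the side on which CDH1 (E-cadherin, -2.39 and 0.85 as deposited on E22B arrays 1 and 2) lay, called the E-cadherin side here, and a negative value the side of FN1 (fibronectin, 2.08 and -1.36). If Cy5 is the numerator, the E-cadherin side means higher in the transfectant, which opposes the known repression of E-cadherin by E2-2; if Cy3 is, it means lower. For E22A array 1 the title gives the dye of the transfectant as Cy5 and the channel labels give it as Cy3. E22A thus has no settled direction and both readings are printed. That title spells the transfectant EE2A, which was read as E22A because the extract protocol names MDCK-E22A cells. As deposited on E22A arrays 1 and 2, CDH1 stood at -2.13 and -1.13 and FN1 at 2.68 and 1.89, so neither changed sign between them. Read by the titles CDH1 averaged -0.50 ± 2.30 in E22A, and read by the channel labels 1.63 ± 0.71. The side names are fixed by E22B. In E22A by the titles they give the sign only, because CDH1 itself stood at -2.13 on array 1 in that reading.

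As deposited, the ribosomal protein genes spread widely on every array and did not move as a block. On E22A array 1 the 27 genes ran from -1.25 (RPL8) to 0.48 (RPS13) with a median of -0.38, and 20 of 27 were below 0, against 49.2% of all features. The 25 genes with a value on E22A array 2 ran from -1.39 (RPS9) to 0.69 (RPS27L) with a median of -0.09, and 14 were below 0. E22B array 1 gave -0.61 (RPS7) to 0.83 (RPS27L), median -0.03, with 15 of 27 below 0. On E22B array 2 the range was -0.86 (RPL31) to 1.32 (RPL10), median -0.01, with 13 of 26 below 0. Only E22A array 1 therefore had a median of the class away from 0 by more than 0.1.

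**Figure D1:**
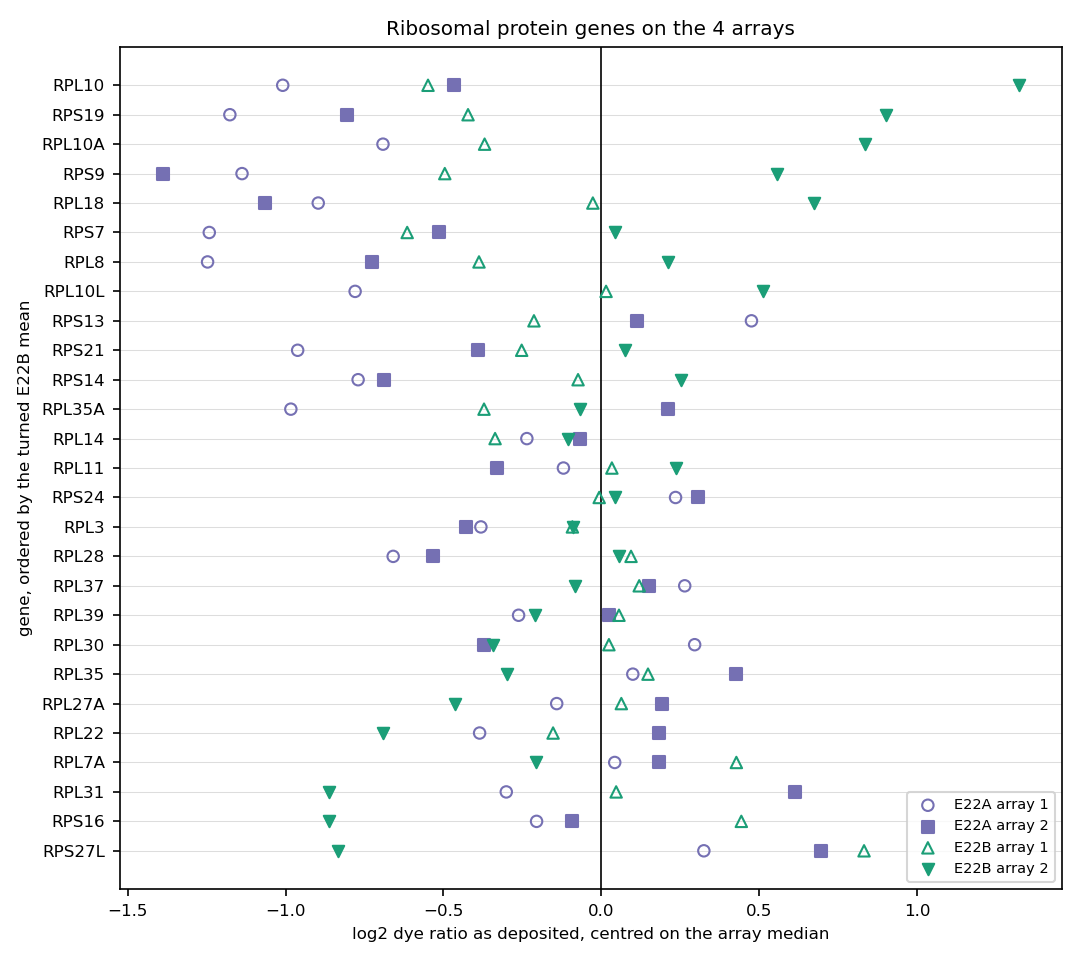
Deposited log2 dye ratio (horizontal axis, centred on each array's median) of each of the 27 ribosomal protein genes (rows, ordered by the E22B mean after turning) on the 4 arrays, 1 symbol per array. RPL10, RPS19 and RPS9 lay left of 0 on E22A arrays 1 and 2 and E22B array 1 and right of 0 on E22B array 2, and RPS27L lay the other way round on all 4 arrays.

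In E22B the genes lay on both sides, in shares near those of all features. RPL10, RPS19, RPL10A, RPS9 and RPL18 lay farthest out on the E-cadherin side and RPS27L, RPS16 and RPL31 on the FN1 side. Of the 26 genes with a value on both E22B arrays, 10 lay on the E-cadherin side of both, where 34.8% of all features did, and 9 on the FN1 side of both, where 35.2% did. The other 7 kept their sign as deposited, as did 2836 of 9465 features. In these the part that followed the dye was larger than the part that turned with the sample. At 2-fold or more on both arrays there was no gene of the 26 (0.718% of all features), and at 1.5-fold or more there was 1 of 26, RPS27L, on the FN1 side (3.23% of features on either side, 0.56% on the FN1 side). These counts are near the background. The class median was 0.10 with an SD of 0.03 between the array medians, the array medians themselves were 0.03 and -0.01, and the median of all features was -0.002. It rested on which genes were counted, at 0.01 over the 24 genes with a value on all 4 arrays.

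RPL10 (Entrez 6134), one of the last proteins to join the large subunit, stood at -0.55 and 1.32 as deposited on E22B arrays 1 and 2. Both values lie on the E-cadherin side, and the mean after turning was 0.94 ± 0.55 (SD, n = 2 arrays), a 1.91-fold ratio. Array 2 was much the larger in size. RPL10A, which forms the mobile L1 stalk beside the exit site for transfer RNA, stood at -0.37 and 0.83 and averaged 0.60 ± 0.33. RPL10L, an intronless copy of RPL10, stood at 0.01 and 0.51, averaged 0.25 ± 0.37 and changed side between the arrays after turning. Whether its clone detects RPL10 RNA cannot be read from these ratios, because the sequences are closely related. RPL18 stood at -0.03 and 0.67 and averaged 0.35 ± 0.46, so almost all of its mean came from array 2. RPL8, which lies at the peptidyl transferase centre, was smaller and steadier at -0.39 and 0.21, with a mean of 0.30 ± 0.12.

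Small subunit genes on that side were led by RPS19 (Entrez 6223), needed for maturation of small subunit RNA and the first gene linked to Diamond-Blackfan anaemia. It stood at -0.42 and 0.90 and averaged 0.66 ± 0.34, a 1.58-fold ratio. RPS9 (Entrez 6203), at the entry of the messenger RNA channel, stood at -0.50 and 0.56 and averaged 0.53 ± 0.04. The arrays of RPS9 thus differed little in size, unlike those of RPL10. RPS7, another MDM2-binding protein, stood at -0.61 and 0.04 and averaged 0.33 ± 0.41, nearly all from array 1. RPS14, of the platform of the small subunit, and RPS21 both averaged 0.16 ± 0.13. RPS24, also a Diamond-Blackfan gene, lay close to 0 on both arrays, at -0.01 and 0.04.

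RPS27L (Entrez 51065), the p53-inducible paralogue of RPS27, was the farthest gene on the FN1 side and the most even of all members between dyes. It stood at 0.83 and -0.83 as deposited, which gives a mean of -0.83 ± 0.001 and a 1.78-fold ratio. RPS27 itself was not analysed here. RPS16, whose tail reaches the transfer RNA in the decoding region, stood at 0.44 and -0.86 and averaged -0.65 ± 0.30. RPL31, near the tunnel exit, stood at 0.05 and -0.86 and averaged -0.46 ± 0.58, almost all of it from array 2. RPL7A stood at 0.43 and -0.21, with a mean of -0.32 ± 0.16, and RPL35, also at the tunnel exit, at 0.15 and -0.30, with a mean of -0.22 ± 0.11. RPL27A (-0.26 ± 0.28), RPL30 (-0.18 ± 0.23), RPL39 (-0.13 ± 0.11) and RPL37 (-0.10 ± 0.03) made up the rest of the 9.

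The 7 genes that kept their deposited sign were all of the large subunit. RPL22, an RNA-binding protein that ribosomes can do without, was the largest of them, at -0.15 and -0.69 as deposited, so the mean after turning was -0.27 ± 0.60. RPL35A (-0.37 and -0.07), RPL14 (-0.34 and -0.11) and RPL3 (-0.09 and -0.09), a protein of the peptidyl transferase centre, were below 0 on both arrays. RPL11 (0.03 and 0.23), RPL28 (0.09 and 0.05) and RPL10L were above 0 on both. Across the 26 genes the part of the ratio that turned with the sample had a median size of 0.26 and the part that followed the dye 0.15, against 0.15 and 0.08 over all features. The turning part was the larger in 19 of 26 genes (73.1%) and in 70% of all features. The E22B arrays correlated at r = -0.639 across the 26 genes and at r = -0.410 across all 9465 features with both values, where a negative r is what turning dyes give. These points share arrays and control RNA, and the correlations are descriptions only.

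In E22A 19 of 25 members had the same sign on both arrays as deposited, where 67.5% of all features did. The correlation r was 0.702 across the 25 genes against 0.373 across all 8980 features with both values. Both are positive, whereas both were negative in E22B. Which label of E22A array 1 is right was not tested. RPS9 stood at -1.14 and -1.39, RPS19 at -1.18 and -0.81, RPL8 at -1.25 and -0.73, RPL18 at -0.90 and -1.06 and RPS7 at -1.24 and -0.51. RPL10 stood at -1.01 and -0.47, RPS21 at -0.96 and -0.39, RPS14 at -0.77 and -0.69 and RPL28, a protein with no bacterial counterpart, at -0.66 and -0.53. RPL10A and RPL10L had a value only on array 1, at -0.69 and -0.78. At the other end RPS27L stood at 0.32 and 0.69, RPS24 at 0.23 and 0.31, RPS13 at 0.48 and 0.11, RPL35 at 0.10 and 0.43 and RPL37 at 0.26 and 0.15. Apart from RPL10A and RPL10L, which have 1 value, these genes kept the same sign on both arrays, and RPL3, RPL7A, RPL11, RPL14 and RPS16 make up the rest of the 19.

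By the channel labels, which place E22A in Cy3 on both arrays, 13 of 25 genes lay on the E-cadherin side of both arrays (32.8% of all features) and 6 on the FN1 side (34.7%). At 2-fold or more there was 1 of 25, RPS9, on the E-cadherin side, at 1.26 ± 0.18, a 2.40-fold ratio (0.401% of features on either side, 0.267% on the E-cadherin side). At 1.5-fold there were 5 of 25, RPS9, RPS19 (0.99 ± 0.26), RPL8 (0.99 ± 0.37), RPL18 (0.98 ± 0.12) and RPS14 (0.73 ± 0.06), all on the E-cadherin side (1.38% of features). RPS7 averaged 0.88 ± 0.51, RPL10 0.74 ± 0.38, RPS21 0.68 ± 0.40, RPL28 0.60 ± 0.09 and RPL3 0.41 ± 0.03. RPS27L averaged -0.51 ± 0.26. The class median was 0.23 with an SD of 0.20, from array medians of 0.38 and 0.09. In this reading the dye of E22A never changes, so a gene's dye effect stays in its mean and in none of these SDs; its part was not tested. In E22B, where the dyes did change, the dye part was 0.03 for RPS9, 0.24 for RPS19, -0.09 for RPL8, 0.32 for RPL18 and 0.09 for RPS14, the 5 genes at 1.5-fold. For the others named here it was -0.29 (RPS7), 0.39 (RPL10), -0.09 (RPS21), 0.07 (RPL28), -0.09 (RPL3) and -0.00054 (RPS27L).

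By the titles the same values cancel. RPS9 became 0.13 ± 1.79, RPS19 -0.18 ± 1.40, RPL8 -0.26 ± 1.39, RPL18 0.08 ± 1.39 and RPS27L -0.18 ± 0.72. Only 1 of 25 genes then lay on the E-cadherin side of both arrays, RPL30 (0.33 ± 0.05; 16.3% of all features), and 5 on the FN1 side of both (16.2%), RPL35A (-0.60 ± 0.55), RPL31 (-0.46 ± 0.22), RPL22 (-0.28 ± 0.14), RPL27A (-0.17 ± 0.04) and RPL39 (-0.14 ± 0.17). All 6 are large subunit genes. None of the 25 reached 2-fold (0.0334% of features) or 1.5-fold (0.323%) on both arrays. The class median was -0.14 with an SD of 0.34, from array medians of -0.38 and 0.09. If both E22A arrays of the channel-label reading are turned, each of its E22A values changes sign and the class median is -0.23.

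**Figure D2:**
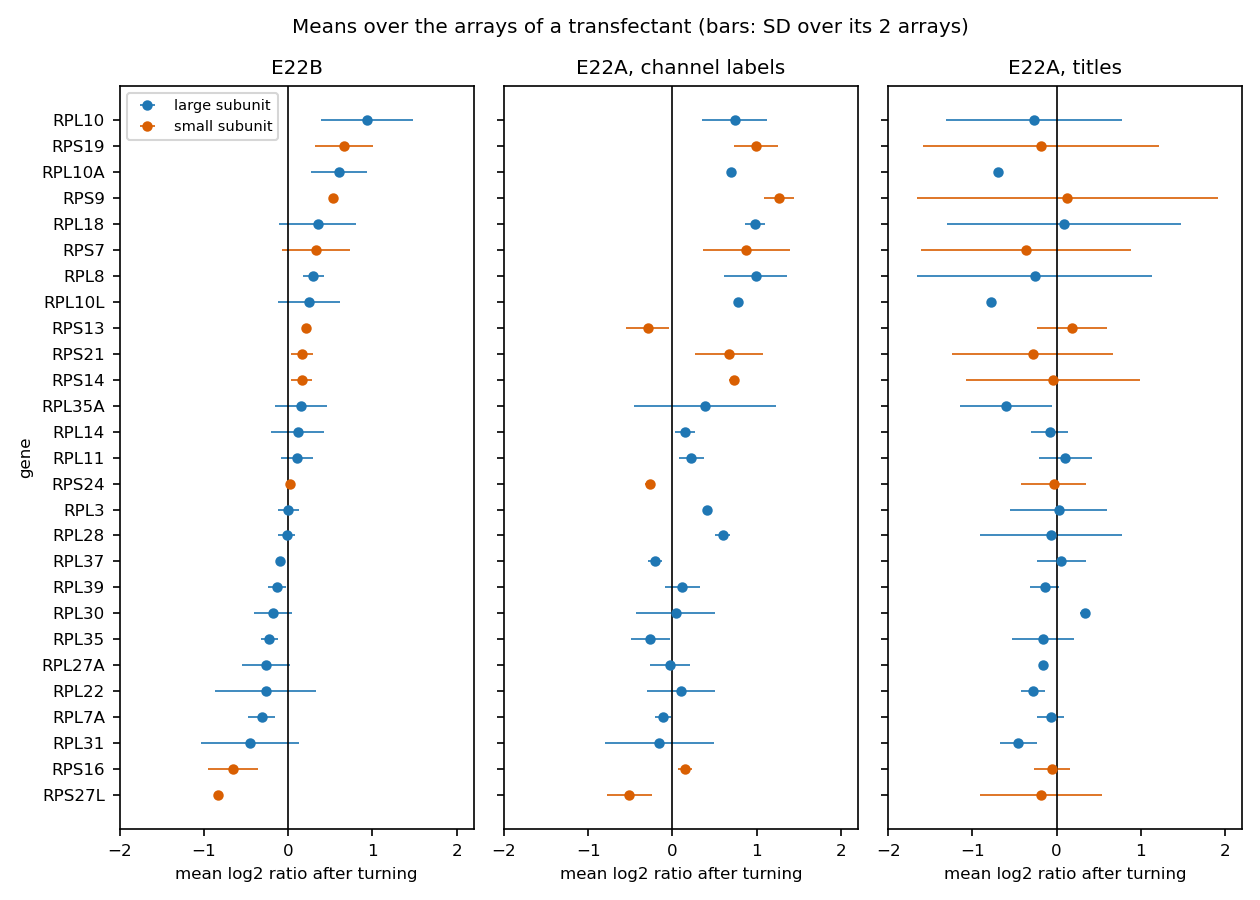
Mean log2 ratio after turning (horizontal axes) of the 27 genes in E22B, in E22A read by the channel labels and in E22A read by the titles, with large subunit genes in blue, small subunit genes in orange and bars for the SD over 2 arrays (no bar where 1 array had a value). RPS9 stood at 0.53 ± 0.04 in E22B and 1.26 ± 0.18 in E22A by the channel labels, while by the titles its E22A mean of 0.13 carried an SD of 1.79.

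Whether E22A and E22B together differed from the control in any of these genes was tested with limma on their means against 0. The fit covered 8682 features with a value on all 4 arrays, with Benjamini-Hochberg adjustment over all of them. E22A and E22B then count as replicates, although they are differently labelled transfectants, and the control's own spread is left out. Any difference between the 2 transfectants enters the SE, so the test does not isolate an effect of E2-2. By the titles 0 of 24 genes passed an adjusted p of 0.05 (0% of all features), and 2 had an unadjusted p under 0.05 (3.2% of features). They were RPL31 at -0.46 ± 0.09 (SE, adjusted p = 0.980, limma) and RPL22 at -0.28 ± 0.09 (adjusted p = 0.980, limma). Both lay on the FN1 side in the mean of each transfectant. By the channel labels 0 of 24 passed as well (0.0115% of features, 1 in number), and 7 had an unadjusted p under 0.05 (13.1% of features). RPL10 came nearest at 0.84 ± 0.10 (SE, adjusted p = 0.0924, limma), before RPS19 at 0.83 ± 0.12 (adjusted p = 0.114) and RPS27L at -0.67 ± 0.12 (adjusted p = 0.146). RPS9 followed at 0.90 ± 0.20 (adjusted p = 0.198), with RPL18 (0.66), RPS7 (0.60) and RPL8 (0.64) also among the 7. A p above the threshold with 2 samples does not show that a gene was equal to the control.

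E22A and E22B share the control RNA, so their values are set side by side and only sizes are counted. By the titles 1 of 24 genes differed by 1 log2 unit or more with no overlap between arrays (1.72% of features on either side, 1.31% with E22A the lower). It was RPL10, at -0.27 ± 1.04 in E22A and 0.94 ± 0.55 in E22B, a difference of -1.21. By the channel labels there were 0 of 24 (1.51% of features), and RPL10 differed by -0.20. The differences in that reading ran from -0.30 (RPS24) to 0.80 (RPS16, at 0.15 ± 0.08 in E22A and -0.65 ± 0.30 in E22B). RPS9 differed by 0.74, RPL8 by 0.69 and RPL18 by 0.63, in each case with the E22A value farther on the E-cadherin side.

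Large minus small subunit, the difference of the medians ran from -0.14 to 0.43 on the single arrays as deposited, and the small subunit median lay farther from 0 than the large on 3 of the 4. On E22A array 1 the large subunit median was -0.34 and the small subunit median -0.77, a difference of 0.43. Array 2 of E22A gave -0.02 and -0.39, a difference of 0.37. On E22B array 1 they were 0.02 and -0.21 (0.23), and on E22B array 2 the order reversed, at -0.09 and 0.06 (-0.14). Since the E22B arrays have opposite dyes, after turning the small subunit median lay farther on the E-cadherin side on both, with medians of the means of 0.16 for the small and -0.01 for the large subunit. In E22A it did so on both arrays by the channel labels (0.68 against 0.19), while by the titles the arrays opposed each other (-0.06 against -0.15).

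The ranges of the subunits overlapped on every array. On E22A array 1 the large subunit ran from -1.25 to 0.30 and the small from -1.24 to 0.48, and on E22B array 2 from -0.86 to 1.32 and from -0.86 to 0.90. With 2 biological samples an exact two-sided sign permutation cannot give a p below 0.5, so no test was made. In E22B the sign turned with the dyes in 8 of 8 small and 11 of 18 large subunit genes (70% of all features), and the difference between the subunits was not tested. RPS24 (-0.01 and 0.04) was close to 0, and 1 of the RPS7 clones did not turn. On the E22A arrays 9 of 9 small and 10 of 16 large subunit genes had the same deposited sign (67.5% of all features), again without a test. The 9 small subunit genes are RPS7, RPS9, RPS13, RPS14, RPS16, RPS19, RPS21, RPS24 and RPS27L.

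**Figure D3:**
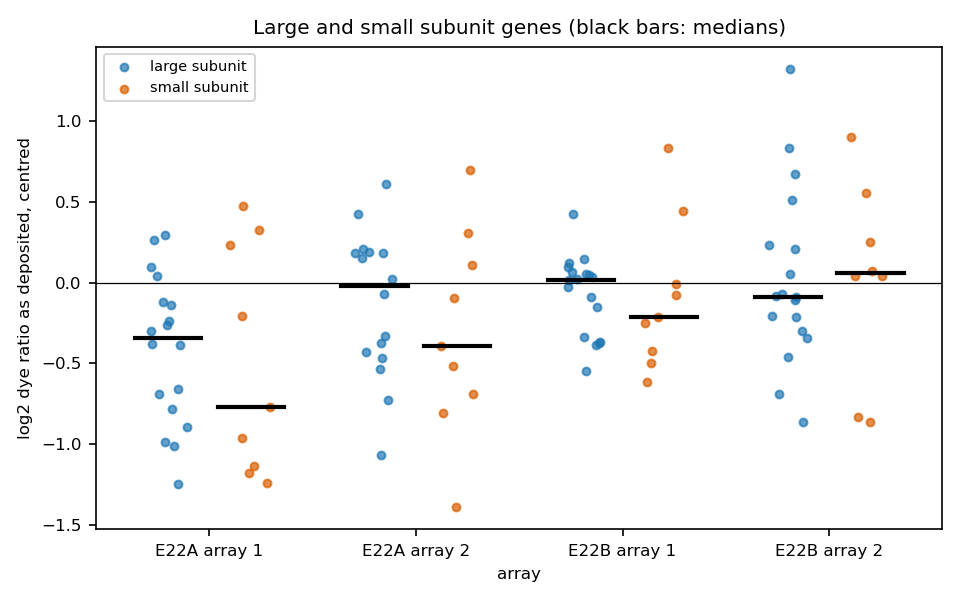
Deposited log2 dye ratio (vertical axis, centred) of large (blue) and small (orange) subunit genes on each array, 1 point per gene and black bars for medians. The small subunit median lay below the large one on E22A array 1 (-0.77 against -0.34), E22A array 2 and E22B array 1, and above it on E22B array 2 (0.06 against -0.09), with overlapping points throughout.

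Several clones were available for 10 of the 27 genes, which shows how far a value belongs to the gene and how far to the clone. The 3 clones of RPS27L lay on the same side on every array, between 0.28 and 0.40 and between 0.55 and 0.83 on the E22A arrays, and between 0.75 and 0.93 and between -1.07 and -0.45 on the E22B arrays. The 3 clones of RPS19 did so too, from -1.31 to -0.91, -0.89 to -0.72, -0.56 to -0.30 and 0.66 to 1.03 on the arrays in the same order. RPL18 had 2 clones, at -1.01 and -0.79 on E22A array 1, which parted in sign only on E22B array 1 (-0.14 and 0.08).

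RPS16 and RPS7 were the genes whose clones lay 1 log2 unit or more apart on an array. For RPS16, 2 clones stood at 0.74 and 0.68 on E22B array 1 and at -1.14 and -1.505 on array 2, whereas the third stood at -0.09 and 0.06. The E22B mean of RPS16 thus rests on 2 of its 3 clones, and the third lay slightly on the other side. For RPS7, 1 clone stood at -0.33 and 0.38 on the E22B arrays and another at -0.90 and -0.29, so the first turned with the dye and the second did not. On E22A array 2 the 3 RPS7 clones ran from -1.14 to -0.09. The clones of RPL22 on E22B array 2 ran from -1.16 to -0.22.

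**Figure D4:**
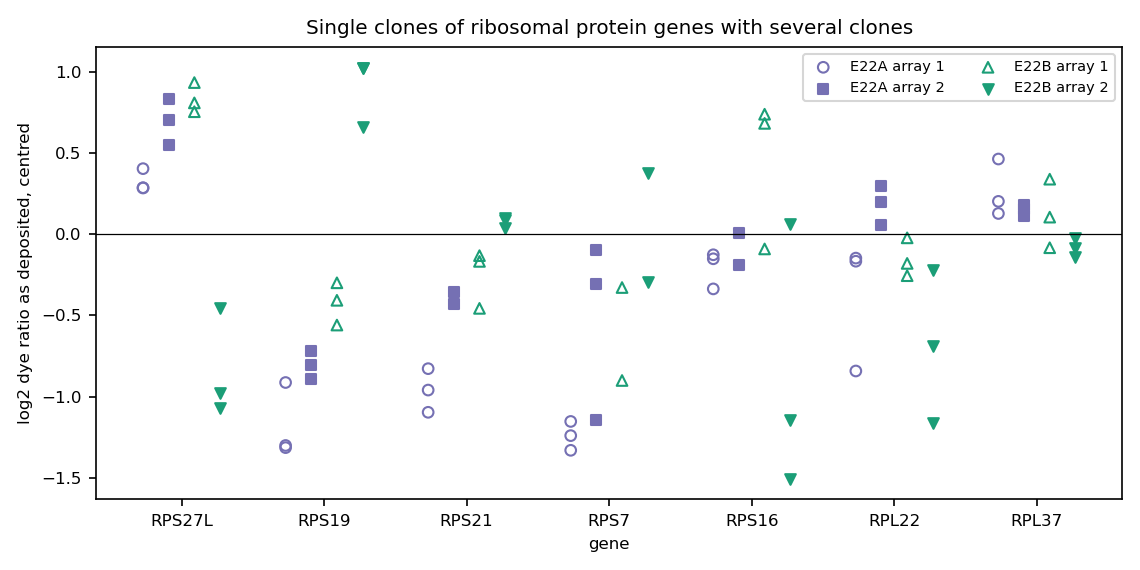
Deposited log2 dye ratio (vertical axis, centred) of single clones of RPS27L, RPS19, RPS21, RPS7, RPS16, RPL22 and RPL37, with 1 symbol per array. The 3 RPS27L clones kept together on each array, while on E22B array 2 the RPS16 clones spread from -1.505 to 0.06.

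Other genes of protein synthesis gave a mixed picture. No gene of these lists that was in the pooled fit passed that test in either reading. Of all features, 0 of 8682 passed when read by the titles and 1 of 8682 by the channel labels. The absence of calls therefore says little about the lists. Genes without a value on every array were not in the fit, which held 16 of 18 ribosome biogenesis genes with a value. The lists were chosen with earlier results of these data known. Of 41 listed genes of ribosome biogenesis, 17 had a value on both E22B arrays, and 11 lay on the E-cadherin side of both against 1 on the FN1 side, where 34.8% and 35.2% of all features did. Their E22B median was 0.19, beside -0.002 over all features. POLR1C, a subunit of RNA polymerases I and III, averaged 0.65 ± 0.19, NOLC1, a nucleolar chaperone of small nucleolar ribonucleoproteins, 0.45 ± 0.26, and DDX21, a nucleolar helicase, 0.35 ± 0.26. None of the 17 reached 1.5-fold on both E22B arrays (3.23% of all features). In E22A the list's median was 0.20 when read by the channel labels, and 0.05 when read by the titles.

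Elongation factors and other genes whose messenger RNAs carry the pyrimidine tract had values for 10 of 19, with an E22B median of 0.19. As deposited the E22B array medians were -0.29 and -0.16, which lie on opposite sides after turning. On the same side of both E22B arrays lay 3 of 10 (70% of all features), each on the E-cadherin side. EEF1D, an exchange factor of elongation factor 1, averaged 0.60 ± 0.35, EIF4B, a helper of the initiation helicase, 0.37 ± 0.03, and TPT1 0.60 ± 0.69. As deposited EEF1D stood at -0.58 and -0.60 on the E22A arrays and EIF4B at -0.51 and -0.64, whereas TPT1 stood at 0.06 and -1.62. Translation initiation factors (19 of 32 with a value) had a median of 0.03. On the E-cadherin side lay 8 and on the FN1 side 6 (34.8% and 35.2% of all features). EIF5B, which joins the subunits, averaged -0.56 ± 0.09, EIF1AX 0.42 ± 0.35 and EIF3D 0.34 ± 0.24.

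Mitochondrial ribosomal proteins, which build the separate ribosome of mitochondria, had a median of -0.03 in E22B. Of 32 with both values 8 lay on the E-cadherin and 14 on the FN1 side (34.8% and 35.2% of all features). MRPS10 averaged 1.00 ± 0.07 and was the only gene of these lists at 1.5-fold on both E22B arrays (3.23% of all features). MRPS18B averaged 0.51 ± 0.08 and MRPL51 -0.48 ± 0.58. Among S6 kinases and regulators (11 with both values) the median was -0.01, with 2 on the E-cadherin and 5 on the FN1 side (same shares of all features). MDM2, the ubiquitin ligase of p53 that RPL11 and RPS7 bind, averaged 0.53 ± 0.06, opposite in side to RPS27L. MTOR, the kinase that controls translation of the pyrimidine tract class, averaged 0.37 ± 0.33 and AKT1 -0.24 ± 0.003.

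The features outside the class closest to the mean of its 24 fully measured genes (-0.45, -0.20, -0.06 and -0.03 on the arrays in order) were chosen by Euclidean distance over the 4 arrays. Of the 5 nearest, LAMC1 (distance 0.05), ALDH3A2 (0.12) and SF3A3 (0.13) have a gene symbol. That mean averages over members on opposite sides in E22B, whose shares were near those of all features.

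Marker lists of cell types were thinly covered. Epithelial markers, CDH1 among them, had values for 7 of 12 genes, and their E22B median was 1.04. Their E22B array medians as deposited were -1.12 and -0.16, which lie on opposite sides after turning. Of 6 with both E22B values, 2 lay on the E-cadherin side of both arrays, CDH1, which defines that side, and DSP (1.42 ± 0.02). On the FN1 side of both lay 1, KRT8 (-0.39 ± 0.50). Of the fibroblast list 4 of 8 had values, and on both E22B arrays 2 of them took the E-cadherin side, 1 the FN1 side. Over all features the shares were 34.8% and 35.2%. The E22B median of the fibroblast list was 0.93, with array medians of -0.26 and 1.60 as deposited. Over E22A arrays 1 and 2 and E22B arrays 1 and 2 in turn, POSTN stood at 1.70, 1.20, -0.52 and 5.59, COL1A2 at 0.52, 0.11, -0.17 and 3.21, and LUM at 0.73, 0.02, 0.96 and -0.28. Endothelial (4 of 5) and leukocyte (3 of 5) markers had E22B medians of -0.04 and -0.05. The part of these in the ribosomal protein values was not tested.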

How the data were processed

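The authors deposited 1 log2 ratio of the dyes per spot and array; no source used here states the image analysis, background correction or normalisation, and the base of the logarithm is an assumption. The number of arrays limits precision. The 2 spots of each of 13824 clones were averaged, arrays were centred on their median, and clones with 1 symbol in the platform annotation (8744) were averaged by gene on each array. Orientation followed the titles, with the channel labels beside it. A pooled test used lmFit and eBayes of limma 3.58.1 (R 4.3.3) with Benjamini-Hochberg adjustment over all features. It was also run on simulated independent samples with a common SD. That run does not check the test for means that share a control RNA, as these do. Other counts are by size. Tables were made with Python 3.11.15. Alternatives covered centring, scale, clones, spots, orientation, members and single arrays. Members and lists were chosen with earlier results of these data known. Named genes were those farthest from 0 on the same side of both arrays (up to 8 per transfectant and reading), those at 2-fold on any array, those with clones 1 log2 unit apart and a set of functional landmarks; the remaining members are given for completeness. No sequence table was used here, so no sequence is printed.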

Additional observations from a re-analysis of the deposited data

Results flagged for a closer look

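RPL30 was positive, the E-cadherin side as fixed by E22B, on both E22A arrays by the titles (0.33 ± 0.05, SD, n = 2 arrays). CDH1 itself stood at -2.13 on E22A array 1 in that reading. On both E22B arrays RPL30 lay on the FN1 side (-0.18 ± 0.23), a difference of 0.52 that was not tested. By the channel labels its E22A arrays lay on opposite sides, at -0.30 and 0.37. Opposite sides of this kind were found in 1 of 24 members with all 4 values by the titles, and in 12.4% of all features.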

How the results depend on the processing

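The pooled test called 0 ribosomal protein genes in all 24 fits tried. These covered both readings of E22A, the sign of its pair turned and channel 2 over channel 1. Over all features the test called 0 of 8682 in the main fit and 1 of 8682 when E22A followed its channel labels. A count of 0 in those fits therefore says little about the class. Leaving out E22A array 1 gives the same fit in both readings, so the 24 are not all separate. The E22B class median of 0.10 became 0.0128 over members with a value on all 4 arrays, 0.00614 with both spots required and 0.0138 with clones measured on all 4 arrays, and ranged from -0.0127 (without array 1) to 0.0270 (without array 2). The E22A median of -0.14 became 0.23 by the channel labels. The count at 2-fold on both E22B arrays, 0, became 1 at 1.5-fold (3.23% of all features) and 0 to 1 with 1 array left out. The E22A count of 0 became 1 by the channel labels (0.401% of all features) or with the pair turned. It became 5 at 1.5-fold by the channel labels (1.97%), and 2 (without array 1) to 5 (without array 2). The count that differed between E22A and E22B, 1 (1.72% of all features), became 0 by the channel labels (1.51%). It became 7 with the E22A pair turned, and 0 to 11 with 1 array left out (11 without E22A array 2). Shares over all features were not counted with the pair turned or with 1 array left out, so those counts have no background beside them. Fewer arrays make these size rules easier to meet. The cause of the other shifts was not tested. The large minus small subunit difference kept its direction on each array under the 7 alternatives tried. Arrays of E22A were not paired with arrays of E22B, because the labels give no replicate numbers.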

Other observations

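The 4 symbols that met the name rule but lacked a value on one of the transfectants each had a value on 1 array. As deposited and centred, RPS15 stood at -1.25 on E22A array 1, RPL6 at -0.22 and RPS6, the substrate of the S6 kinases, at -0.41 on E22A array 2, and RPS15A at 1.31 on E22B array 1.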
